A study of Bos taurus with 6 samples.

Results

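Cholesterol is built from acetyl-CoA in the cytosol and the endoplasmic reticulum, first along the mevalonate arm to farnesyl diphosphate and then through squalene and a series of sterols. The genes of this route are switched on by SREBP2, a transcription factor that is held in the endoplasmic reticulum by SCAP and INSIG proteins while sterols are plentiful and is cut free when they run short. Rumen epithelium absorbs short-chain fatty acids, butyrate among them, and turns part of it into ketone bodies through a separate mitochondrial HMG-CoA synthase, whereas the cytosolic synthase of the members serves cholesterol. Here 7 genes were followed, which are SREBF2 (the gene of SREBP2 itself), the enzyme genes HMGCS1, FDFT1, SQLE, LSS and DHCR7, and INSIG1. They were taken by name from the gene tables, where each name stood on 1 row, so the members are 7 of 32183 listed genes.

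The cells were rumen epithelial primary cells (REPC) grown from a Holstein bull calf that was 2 weeks old and had been fed milk replacer only. They were kept as 3 control cultures and as 3 cultures given 5 mM butyrate in the medium, the latter taken at 24 h. All 6 cultures came from that 1 animal, so the spread between replicates is that of cultures and not of calves. Expression was given as FPKM, the sequenced fragments of a gene scaled to its transcript length and to the size of the library. The paper gives the total of clean read pairs over the RNA libraries, but the gene tables held no read counts. The number of reads behind each gene is therefore unknown, and the confidence bounds of Cufflinks stand in for it. The FPKM values of a control culture summed to between 678035 and 681912 and those of a butyrate culture to between 619401 and 629037. A rescaling to equal sums therefore raised the butyrate values relative to the control values.

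Markers of epithelium were present, with KRT8 at a mean FPKM of 1380 in control, KRT5 at 400.8 and CDH1 at 49.8, but EPCAM at 0.54. Most listed markers of fibroblasts were present as well, with VIM at 2464, COL1A1 at 1149, COL1A2 at 459.3 and COL3A1 at 313.3. THY1 at 21.5, FBLN1 at 14.3 and DCN at 6.9 were lower. The rest of that list was near 0 in control, with LUM at 0.149, PDGFRA at 0.306 and PDGFRB at 0.0203. PTPRC of leukocytes and CDH5 of endothelium were listed at 0 in all 6 cultures. Of the 10 epithelial markers 7 rose and KRT5 fell, and their FPKM sum, 2435 to 2545 in control cultures, was 5089 to 5182 in butyrate cultures. Of the 10 fibroblast markers 9 were tested and all 9 rose, and their sum of 4372 to 4524 became 6403 to 6747. By the same test, given in the next paragraph, 32.5% of all tested genes were called higher and 25.9% lower. Past a log2 fold change of 1 were the epithelial markers KRT14 (2.78), EPCAM (2.44), KRT15 (2.24), KRT19 (1.99) and KRT18 (1.56). The fibroblast markers past it were THY1 (2.03), LUM (1.56), PDGFRA (1.41) and FBLN1 (1.06). Of all tested genes 17.2% were called higher past that fold change. Of 6 markers of other cell types 4 were tested, of which CD68 (0.92), PECAM1 (1.28) and DES (2.07) rose from means under 2 FPKM and ACTA2 of contractile cells fell by 1.46, from a mean of 2752 to 1006. ACTA2 made up most of their sum, which was 2640 to 2820 in control and 845.4 to 1157 after butyrate. The part of cell composition in the results was not tested, and in bulk RNA fewer cells of a type cannot be told apart from less RNA per cell.

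The members as a group moved little after butyrate, and the changes that passed the test went opposite ways. Fold changes were taken on log2(FPKM + 0.1) and tested with limma over 15813 genes, a gene being called at a Benjamini-Hochberg adjusted p under 0.05. INSIG1 rose by a factor of 1.34 and HMGCS1 fell by 28.1%, and the other 5 members were not called. So 1 of 7 members was called higher, where 32.5% of all tested genes were, and 1 of 7 lower, where 25.9% were. All 7 members passed the filter on low values. Their median log2 fold change was 0.15 against 0.10 over all tested genes. No member passed adjusted p under 0.05 together with a log2 fold change beyond 1, which 17.2% of tested genes did upward and 8.04% downward. None reached the study's own thresholds either, a Bonferroni-corrected p under 0.05 with a log2 fold change beyond 2, set here on limma. Of tested genes 2.46% reached them upward and 1.51% downward. The study set these thresholds on a Cufflinks test, so these shares are not those of its own gene lists. In 5 members the 3 butyrate values did not overlap with the 3 control values, 4 of them higher and 1 lower, where 36.1% and 28.9% of the tested genes were separated in those directions.

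**Figure D1:**
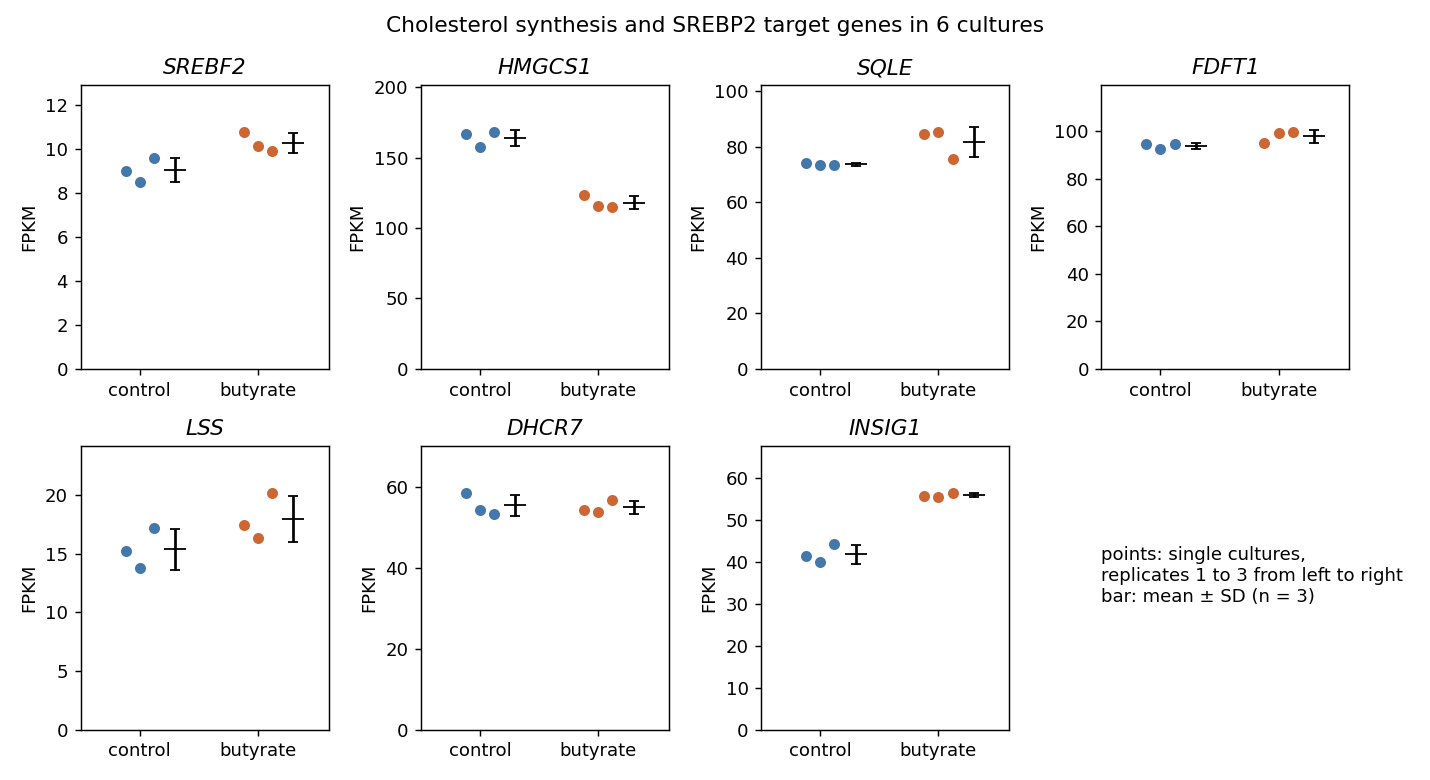
FPKM of the 7 members in single cultures, with the mean and SD (n = 3) of each group beside the points; each panel has its own axis from 0. HMGCS1 and INSIG1 were separated most clearly, with all butyrate values of HMGCS1 at or under 123.7 and all those of INSIG1 at or above 55.5, while LSS and DHCR7 overlapped between the groups.

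SREBF2 lies on chromosome 5 from 113377699 to 113416353 (build UMD3.1, coordinates as the tables give them) and encodes the precursor of SREBP2. In the order of replicates 1, 2 and 3, which holds throughout, its FPKM was 9.03, 8.50 and 9.59 in control and 10.8, 10.2 and 9.93 after butyrate. The butyrate cultures all lay above the control cultures, yet the gap between the nearest ones was small. The control mean was 9.04 ± 0.546 and the butyrate mean 10.3 ± 0.443 (SD, n = 3), and the log2 fold change of 0.19 with a 95% interval from -0.03 to 0.40 was not called (limma, adjusted p = 0.117). Cufflinks bounded the value of control replicate 1 between 7.89 and 10.2 and that of butyrate replicate 1 between 9.58 and 11.99, so these estimates overlapped. SREBF2 was the lowest of the 7 members in both groups. The row of the microRNA MIR33A lies within its span.

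INSIG1, on chromosome 4 from 117906738 to 117920023, encodes the protein that retains the SCAP and SREBP complex in the endoplasmic reticulum, and it is itself a target of SREBP. Its FPKM was 41.3, 39.8 and 44.3 in control and 55.8, 55.5 and 56.4 after butyrate. The butyrate cultures lay close together and all above the control cultures. The mean went from 41.8 ± 2.29 (SD, n = 3) to 55.9 ± 0.441 (SD, n = 3). This is 0.42 ± 0.06 (SE) on the log2 scale (limma, adjusted p = 0.000288). Over the 15 alternative settings, INSIG1 stayed called, with log2 fold changes between 0.32 and 0.54.

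HMGCS1, on chromosome 20 from 31451293 to 31477033, makes HMG-CoA in the cytosol and was the highest of the members. Its FPKM was 166.9, 157.6 and 168.0 in control and 123.7, 115.3 and 115.2 after butyrate. Here all butyrate cultures were below all control cultures. The control mean was 164.2 ± 5.67 and the butyrate mean 118.0 ± 4.87 (SD, n = 3), which is -0.48 ± 0.05 (SE) on the log2 scale (limma, adjusted p = 4.99e-05). Its Bonferroni-corrected p from limma was 0.124. HMGCS1 stayed called under the same 15 settings, between -0.58 and -0.33.

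FDFT1, the squalene synthase, lies on chromosome 8 from 7427459 to 7454019 and is the first enzyme that commits farnesyl diphosphate to sterols. Its FPKM was 94.3, 92.4 and 94.5 in control and 94.8, 99.0 and 99.5 after butyrate. Butyrate replicate 1 was barely above the highest control culture. The log2 fold change was 0.06 with a 95% interval from -0.04 to 0.16 (limma, adjusted p = 0.277).

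SQLE, the squalene epoxidase, lies on chromosome 14 from 16723392 to 16745626. Its FPKM was 74.1, 73.3 and 73.5 in control and 84.5, 85.2 and 75.6 after butyrate. The control cultures agreed closely, while butyrate replicate 3 stood nearer to them than to the other butyrate cultures. The log2 fold change of 0.15 (95% interval 0.02 to 0.28) just missed the threshold (limma, adjusted p = 0.0552), and without butyrate replicate 3 it was 0.20 and passed (limma, adjusted p = 0.0086).

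LSS, the lanosterol synthase on chromosome 1 from 147625688 to 147654101, closes the ring system of the sterols. Its FPKM was 15.2, 13.8 and 17.2 in control and 17.5, 16.4 and 20.2 after butyrate. The groups overlapped, since butyrate replicate 2 was below control replicate 3. The log2 fold change was 0.22 with a 95% interval from -0.03 to 0.48 (limma, adjusted p = 0.116).

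DHCR7, on chromosome 29 from 48930320 to 48950690, catalyses the last reduction to cholesterol. Its FPKM was 58.4, 54.3 and 53.4 in control and 54.2, 53.8 and 56.8 after butyrate. The groups lay within each other's range, and the log2 fold change of -0.01 had a 95% interval from -0.14 to 0.12 (limma, adjusted p = 0.884). These values leave room for a change of DHCR7 in either direction within that interval.

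Since FPKM is divided by transcript length, levels can be set side by side between genes. In control the order of mean FPKM was HMGCS1, FDFT1, SQLE, DHCR7, INSIG1, LSS and SREBF2, and no neighbours in that order overlapped in any culture. After butyrate the order was the same except that INSIG1, at a mean of 55.9, and DHCR7, at 54.9, exchanged places, and the values of these 2 genes overlapped. Ratios within a culture do not change when a library is multiplied by 1 factor, as for TPM, but quantile normalization changes them. The ratio of INSIG1 to HMGCS1 was 0.247, 0.253 and 0.264 in the control cultures and 0.451, 0.482 and 0.490 in the butyrate cultures. The ratio of HMGCS1 to FDFT1, one enzyme from either arm, went from 1.75 ± 0.0391 (SD, n = 3) to 1.21 ± 0.0830 (SD, n = 3). Both ratios were separated between the groups (two-sided p = 0.1, the lowest value that an exact permutation test of 3 against 3 cultures allows). The ratio of SQLE to FDFT1 was 0.786 ± 0.00776 in control and 0.838 ± 0.0691 after butyrate (SD, n = 3), which was not separated (exact permutation test, p = 0.4).

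Several calls among the smaller changes differed between scalings of the libraries. Rescaling to equal sums, that is to TPM, raised the log2 fold change of the median tested gene by 0.12, while quantile normalization lowered it by 0.15 and median scaling by 0.10. With TPM 5 of the 7 members were called higher, which were INSIG1, SQLE, FDFT1, LSS and SREBF2, where 37.5% of all tested genes were. With quantile normalization 3 were called higher, namely INSIG1, SQLE and FDFT1, where 27.1% of all tested genes were. With the median of tested genes set equal in all cultures INSIG1 alone was called higher, where 28.3% of all tested genes were. HMGCS1 was called lower in each of these. Of all tested genes 21.4% were called lower with TPM, 29.6% with quantile normalization and 30.3% with median scaling. The sign of DHCR7 was positive with TPM and quantile normalization, and that of FDFT1 was negative with median scaling.

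**Figure D2:**
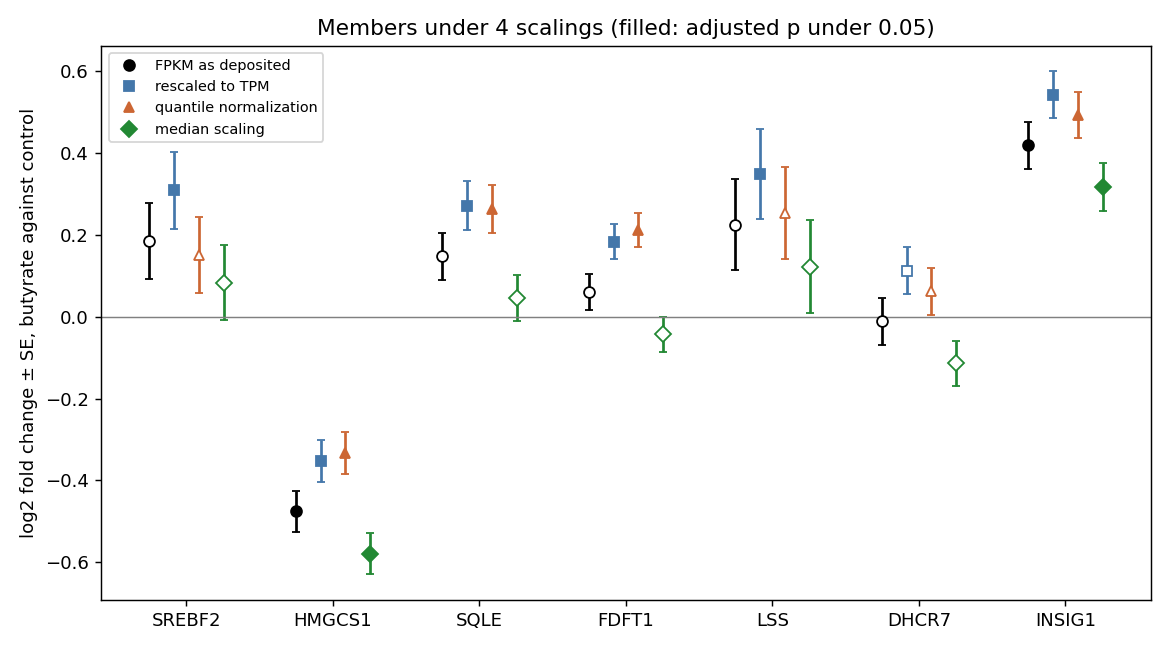
Log2 fold change with its standard error for each member under FPKM as deposited, TPM, quantile normalization and median scaling; filled symbols mark adjusted p under 0.05. HMGCS1 is below 0 and INSIG1 above 0 with filled symbols under all 4 scalings, whereas the other 5 members lie between -0.11 and 0.35.

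The members hold 5 of 19 enzymes of the route that were listed here plus 2 regulators, and the fuller list shows where changes lay. Of the 19 enzymes, 9 fell, 4 rose and 6 were not called, with a median log2 fold change of -0.14 against 0.10 over all tested genes. The share called lower was therefore above the 25.9% of all tested genes and the share called higher below the 32.5%. This list, like the members, was written with earlier results of these data known. The second part of that comparison turned with the scaling, since 8 of 19 enzymes were called higher with TPM, where 37.5% of all tested genes were, and 7 of 19 with quantile normalization, where 27.1% were.

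In the mevalonate arm, which runs from acetyl-CoA to farnesyl diphosphate, 6 of the 7 enzymes listed fell, none rose, and the median log2 fold change was -0.62, beside 25.9% of all tested genes lower, 32.5% higher and a median of 0.10. The 7 FPKM values gave sums of 648.1 to 688.4 in the control cultures and of 436.5 to 444.7 in the butyrate cultures. The sharpest fall was that of MVK, mevalonate kinase, on chromosome 17 from 65863708 to 65882688. Its FPKM was 24.5, 28.6 and 25.3 in control and 9.61, 9.19 and 9.51 after butyrate, a log2 fold change of -1.46 (limma, adjusted p = 1.6e-06). The butyrate cultures held about the same level and the lowest control culture was more than 2 times higher.

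ACAT2, the cytosolic thiolase that starts the arm, went from 166.9, 157.3 and 152.6 to 80.6, 74.0 and 79.9, a log2 fold change of -1.02 (limma, adjusted p = 1.11e-06). Its span overlaps that of TCP1, a chaperonin gene, by 83 bases, and TCP1 fell as well, from a mean FPKM of 312.3 to 186.7. The library kit was not stated to keep strand, so reads in the shared stretch cannot be assigned to one gene with certainty. The spans of NSDHL, HSD17B7, SREBF1, SCAP and NPC1 also overlap those of other listed genes.

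FDPS, MVD and IDI1, which lead from phosphorylated mevalonate to farnesyl diphosphate, fell with log2 fold changes of -0.65, -0.62 and -0.22. The call of IDI1 was lost in 5 settings, with TPM (-0.09), with quantile normalization (-0.05), without butyrate replicate 1 (-0.20), and at an unchanged -0.22 without the filter on low values and without the trend of limma. PMVK was not called at -0.14, with FPKM values of 12.8, 12.4 and 22.5 in control and 13.1, 14.97 and 13.5 after butyrate. Control replicate 3 stood apart there, and without it the log2 fold change was 0.13.

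The squalene and sterol arm was mixed, with 4 of 12 listed enzymes higher (32.5% of all tested genes), 3 lower (25.9%) and 5 not called, and 4 of those not called were the members FDFT1, SQLE, LSS and DHCR7. The fifth was MSMO1, a sterol methyl oxidase, at 148.2 ± 7.43 in control and 152.6 ± 1.15 after butyrate (mean FPKM, SD, n = 3). The 12 FPKM values gave sums of 716.1 to 754.2 in control cultures and of 836.9 to 871.7 in butyrate cultures. The enzymes that fell were LBR, EBP and NSDHL, with log2 fold changes of -1.41, -1.35 and -1.24. EBP, a sterol isomerase on chromosome X, went from 77.5, 73.0 and 84.9 to 28.9, 31.8 and 31.4. NSDHL, a dehydrogenase that acts while methyl groups are removed and is also on chromosome X, went from 63.2, 67.4 and 70.4 to 28.4, 26.2 and 30.4. In both genes the highest butyrate value was less than 50% of the lowest control value. Rises were seen for TM7SF2, CYP51A1, SC5D and HSD17B7, at 1.38, 0.67, 0.47 and 0.28 on the log2 scale, and the call of HSD17B7 was lost with median scaling (0.18). MSMO1 was called higher with TPM (0.17) and quantile normalization (0.17). CYP51A1, the lanosterol demethylase, went from 38.6, 33.0 and 34.96 to 56.0, 57.7 and 55.7.

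**Figure D3:**
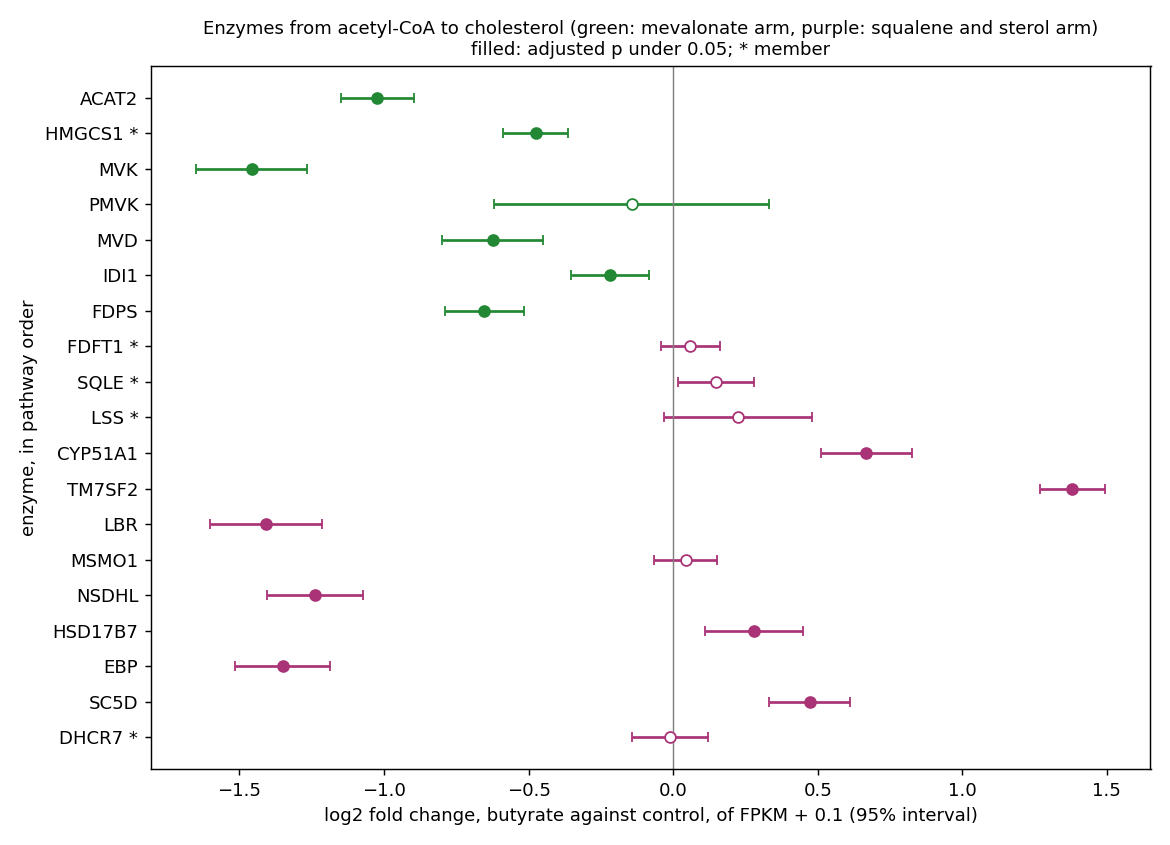
Log2 fold change with its 95% interval for 19 enzymes between acetyl-CoA and cholesterol, in pathway order from top to bottom; green points are the mevalonate arm, purple points the squalene and sterol arm, filled points have adjusted p under 0.05 and stars mark members. Of the 7 green points 6 are filled and below 0, while the purple points run from -1.41 (LBR) to 1.38 (TM7SF2).

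TM7SF2 and LBR stand for the same reaction, the reduction of the sterol ring after CYP51A1 has acted, and they moved apart. LBR is the lamin B receptor of the inner nuclear membrane, which carries this reductase activity beside its tie to chromatin, and TM7SF2 is the reductase of the endoplasmic reticulum. LBR, on chromosome 16 from 29148948 to 29177234, went from 27.2, 28.8 and 32.2 to 10.5, 11.3 and 11.1 (limma, adjusted p = 2.04e-06). TM7SF2, on chromosome 29 from 43981730 to 43986407, went from 105.8, 106.5 and 104.6 to 264.6, 293.7 and 268.6 (limma, adjusted p = 1.51e-07). The ratio of TM7SF2 to LBR within a culture was 3.90, 3.69 and 3.25 in control and 25.2, 25.9 and 24.2 after butyrate. The sum of both FPKM values was 135.0 ± 1.88 (SD, n = 3) in control and 286.6 ± 16.1 (SD, n = 3) after butyrate. So the summed level of the reductase genes was higher after butyrate while one of them fell.

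**Figure D4:**
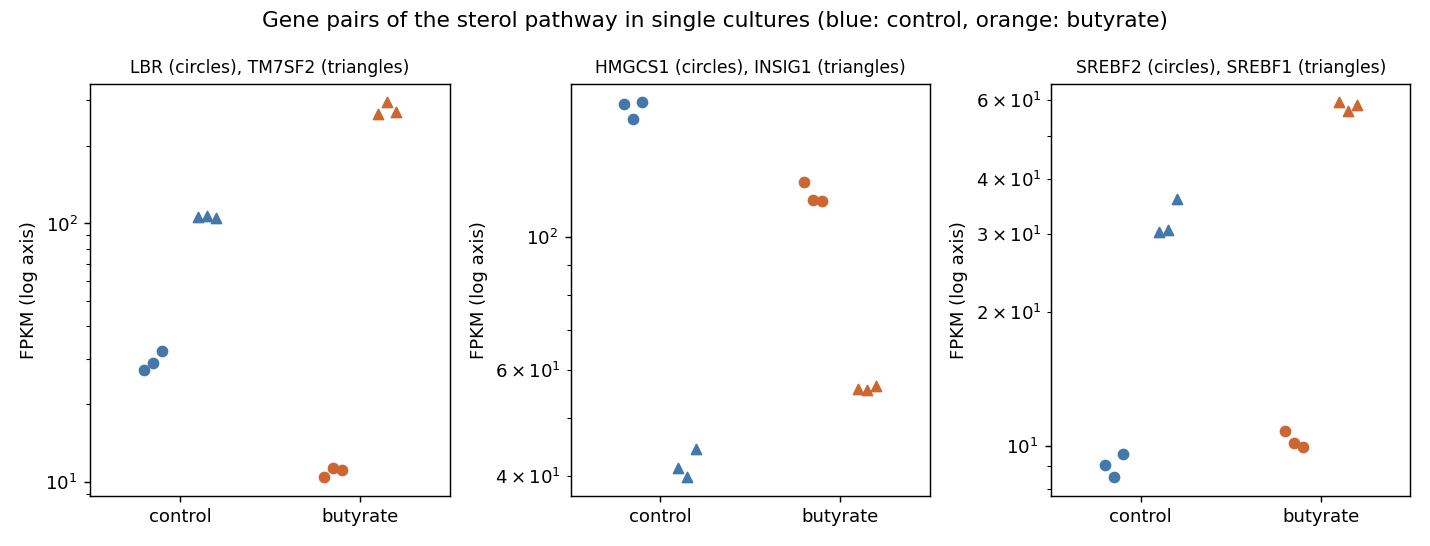
FPKM on a log axis in single cultures for LBR and TM7SF2, HMGCS1 and INSIG1, and SREBF2 and SREBF1; blue marks control and orange butyrate. In the first 2 panels one gene falls and the other rises, and in the last SREBF1 rises from a mean of 32.3 to 58.2 while SREBF2 changes from 9.04 to 10.3.

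Of the 7 genes of the SREBP machinery, 4 rose, none fell and 3 were not called, with a median log2 fold change of 0.30, beside 32.5% higher, 25.9% lower and a median of 0.10 over all tested genes. SREBF1, the gene of SREBP1 that serves mainly fatty acid synthesis, rose from 30.2, 30.6 and 36.0 to 59.4, 56.8 and 58.5, a log2 fold change of 0.85 (limma, adjusted p = 2.1e-05). Its ratio to SREBF2 within a culture went from 3.57 ± 0.206 to 5.66 ± 0.202 (SD, n = 3), with no overlap (exact permutation test, two-sided, p = 0.1). INSIG2, which acts like INSIG1, rose from a mean of 11.6 to 15.3, and the ratio of INSIG1 to INSIG2 was 3.60 ± 0.146 in control and 3.68 ± 0.477 after butyrate (SD, n = 3). That ratio did not separate the groups (exact permutation test, p = 0.8). MBTPS1, the protease that makes the first cut in SREBP, rose by 0.30 on the log2 scale, a call that median scaling took away (0.20). MBTPS2, the protease of the second cut, was not called at -0.31 but was called lower with median scaling (-0.42), so that 3 genes rose and 1 fell under that scaling. Of all tested genes 28.3% were called higher and 30.3% lower with median scaling. SCAP, the escort that senses sterols, stood at 40.5 ± 1.63 in control and 40.4 ± 0.967 after butyrate (mean FPKM, SD, n = 3), and its log2 fold change of -0.004 had a 95% interval from -0.14 to 0.13.

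Of the 5 genes listed for sterol uptake and traffic, 2 rose, where 32.5% of all tested genes did, and 3 were not called. NPC1, which moves cholesterol out of lysosomes, rose from 4.77, 5.02 and 6.06 to 14.9, 16.7 and 14.7, a log2 fold change of 1.54 (limma, adjusted p = 8.28e-06). NPC2, its soluble partner, rose by 0.38. SCARB1, TMEM97 and STARD4 were not called, at -0.05, -0.18 and -0.08, but TMEM97 was called lower with median scaling (-0.28) and without control replicate 2 (-0.24). Of 3 further genes, those of the ubiquitin ligases MYLIP and RNF139 rose and VCP fell. Among all tested genes 32.5% were called higher and 25.9% lower. MYLIP went from 1.31, 1.23 and 1.49 to 3.53, 4.38 and 4.07, a log2 fold change of 1.503 (limma, adjusted p = 8.79e-05), and so stayed low in both groups while the groups were well apart. RNF139 rose by 0.37. VCP, which draws proteins out of the membrane for degradation, fell from a mean of 274.2 ± 4.37 to 148.0 ± 2.28 (SD, n = 3).

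Farnesyl diphosphate also feeds the isoprenoid branch, which makes dolichol, the tail of coenzyme Q and the anchors of prenylated proteins. Of its 8 genes, 7 fell, none rose and GGPS1 was not called at -0.14, with a median log2 fold change of -0.57, beside 25.9% lower and 32.5% higher among all tested genes. PDSS1, which builds the coenzyme Q tail, went from 15.9, 14.3 and 16.4 to 4.70, 4.95 and 4.26, a log2 fold change of -1.72 (limma, adjusted p = 2.23e-06). PGGT1B, a subunit of a geranylgeranyl transferase, went from 26.6, 27.6 and 29.6 to 14.6, 10.9 and 10.9, a log2 fold change of -1.21 (limma, adjusted p = 3.7e-05).

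Fatty acid synthesis, which SREBP1 mainly serves, was mixed, with 4 of 8 genes higher (32.5% of all tested genes), 1 lower (25.9%) and 3 not called. SCD, the stearoyl-CoA desaturase, rose from 42.1, 40.1 and 43.9 to 106.8, 94.6 and 91.7, a log2 fold change of 1.21 (limma, adjusted p = 1.59e-06). FADS1 and FADS2, the desaturases of polyunsaturated fatty acids, rose by 1.55 and 2.01. Their spans on chromosome 29 overlap, so reads in the shared stretch cannot be assigned with certainty. FADS2 was also low in control, at FPKM values of 0.514, 0.668 and 1.13. Its log2 fold change was 1.28 with a pseudocount of 1, and it stayed called. FASN, the fatty acid synthase itself, was not called at -0.15, with 42.2 ± 2.95 in control and 38.2 ± 4.12 after butyrate (mean FPKM, SD, n = 3). Of the 8 oxysterol and sterol ester genes, 6 were tested. NR1H3, a receptor for oxysterols, rose by 0.73, its relative NR1H2 fell by 0.28, and 4 were not called. So 1 of 6 was called higher, where 32.5% of all tested genes were, and 1 of 6 lower, where 25.9% were. SOAT2 was listed at 0 in every culture and CYP46A1 was too low to be tested.

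**Figure D5:**
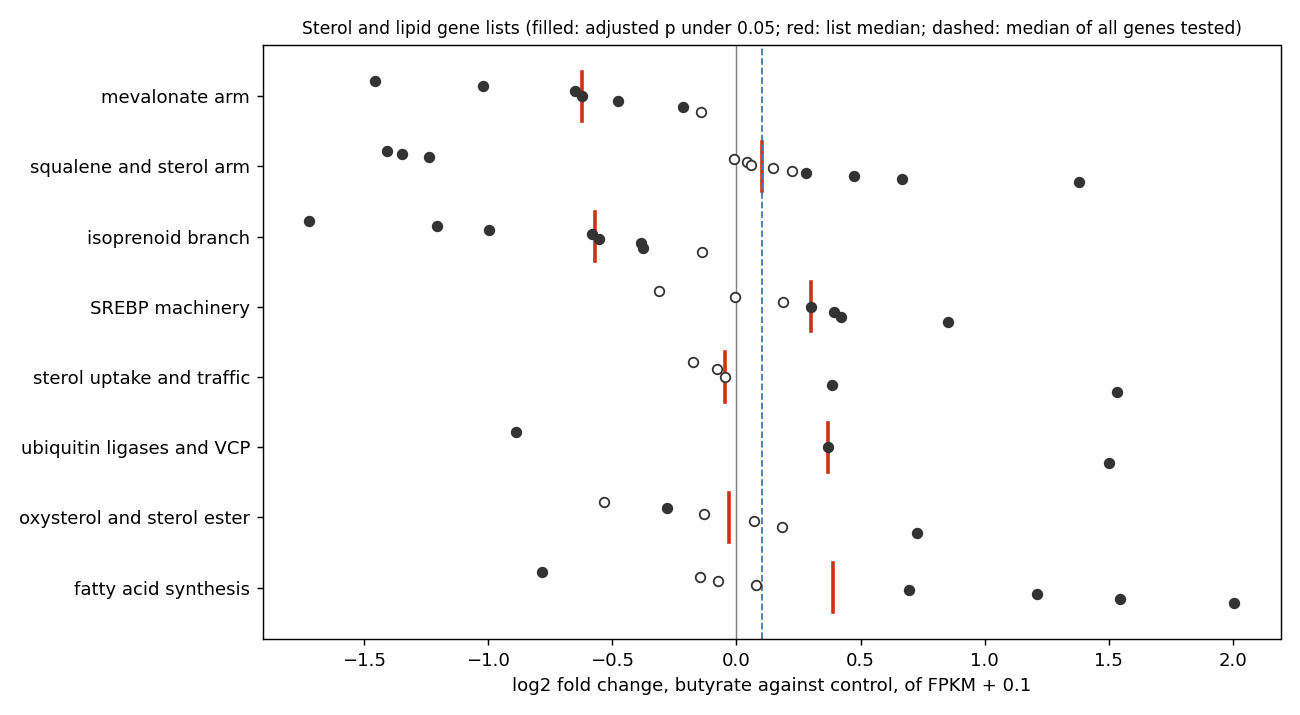
Log2 fold change of each tested gene in 8 sterol and lipid lists, filled where adjusted p was under 0.05, with the list median in red and the median of all tested genes (0.10) dashed. The mevalonate arm and the isoprenoid branch lie wholly below 0, with medians of -0.62 and -0.57, and the other 6 lists span 0.

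For each member the genes with the most similar course over the 6 cultures were sought among 12078 others with a mean FPKM of at least 1, by the root mean square difference of log2 values centred on the control mean. INSIG1 was nearest to GRAMD1C (0.0216) and B3GALNT2 (0.0364), and HMGCS1 to RAB5A (0.0294) and FIS1 (0.0340). The nearest genes were MAPK1IP1L and CAMK2D for SREBF2, VASN and NOA1 for SQLE, FKBP7 and FPGT for FDFT1, ANKRA2 and MTERF1 for LSS, and LAMTOR2 and IFNGR2 for DHCR7. Such courses were common, and 367 genes lay within 0.1 of INSIG1 and 465 within 0.1 of HMGCS1, but only 36 within 0.1 of LSS, whose replicates varied more. None of the nearest genes was another member.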

How the data were processed

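RNA of 3 control and 3 butyrate cultures was sequenced as paired ends with a TruSeq RNA kit. Per the labels and the methods, the authors trimmed reads with Trim Galore 0.4.1, aligned them with STAR, kept uniquely mapped reads and deposited gene FPKM from Cufflinks with confidence bounds; the submitters' processing notes name UMD3.1. Tables were joined by position, and 2 genes with a failed estimate were removed. Chromosome numbers were given to sequence accessions by the chromosome of most of their named genes in the RefSeq table of ARS-UCD2.0, at least 95.2% of which agreed.

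Values of log2(FPKM + 0.1) were compared by limma (version 3.58.1, R version 4.3.3) with its trend option, using the 15813 genes whose mean FPKM reached 0.1; p-values were adjusted over all of them. Single values were compared by exact permutation tests, two-sided. FPKM is not a count, so no count test was run. A pseudocount understates changes of low genes. Groups came from the treatment labels.

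Members and lists were chosen with earlier results of these data known. Some genes of the route are not reported here, and the counts and sums of lists leave them out. The text names all members, SREBF1, SCAP and INSIG2, and list genes past a log2 fold change of 1 at adjusted p under 0.05; the remaining enzymes, SREBP, uptake and other list genes were named after their values were seen. Alternatives were pseudocounts of 0.01 and 1, filters, TPM, quantile and median scaling, no trend, a replicate block, stricter thresholds and each culture left out. Promoter motifs were not analysed here.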

Additional observations from a re-analysis of the deposited data

How the results depend on the processing

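INSIG1 and HMGCS1 kept their direction and their call in all 15 alternative fits. The 1 member called higher became 5 with TPM, 3 with quantile normalization, 2 with the replicate block (LSS added) and 1 to 2 across the fits that left out a culture, SQLE being the addition without butyrate replicate 3. With a log2 fold change beyond 1, and with the study's thresholds, 0 members were called in either direction. Enzymes called lower went from 9 to 5 with a log2 fold change beyond 1 and to 0 with the study's thresholds. Of all tested genes 8.04% were called lower past that fold change and 1.51% at the study's thresholds. Enzymes called higher went from 4 to 8 with TPM, 7 with quantile normalization, 1 with a log2 fold change beyond 1 and 0 with the study's thresholds. At the last 2 of these limits 17.2% and 2.46% of all tested genes were called higher. Signs turned only for genes not called in the main fit, and no turned value was itself called. FDFT1 and MSMO1, which turned with median scaling, were called higher with TPM and with quantile normalization. DHCR7 was 0.113 with TPM and 0.062 with quantile normalization and ranged from -0.037 to 0.029 with a culture left out. SCAP was 0.119 and 0.067 and ranged from -0.022 to 0.029, and SCARB1 was 0.077 and 0.006 and ranged from -0.101 to 0.008, in the same order. STARD4 was 0.045 with TPM, FDFT1 was -0.043 and MSMO1 -0.059 with median scaling, and PMVK ranged from -0.292 to 0.133 with a culture left out. TPM and median scaling move all but very low genes by about the same amount by construction; the cause of the other changes was not tested. Replicates shared numbers, but deviations of same-numbered cultures correlated at 0.0228, -0.00431 and 0.00177 across genes and not every culture correlated best with its own number, so they were not treated as pairs; the replicate block added the call of LSS (0.225) and removed none among the 7 members and 33 other genes that were followed under the settings. Without counts, the number of reads behind each gene value is unknown.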

Other observations

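Proteins that carry sterols between membranes form a group that the comparisons above left out, and its list was written after the values were seen. Of 17 such genes, 10 rose, 1 fell and 6 were not called, where 32.5% of all tested genes were called higher and 25.9% lower. The median log2 fold change was 0.41 against 0.10 over all tested genes. OSBP, which trades sterols at the contact of endoplasmic reticulum and Golgi, fell from 13.1, 10.9 and 11.6 to 7.99, 5.16 and 6.36, a log2 fold change of -0.87 (limma, adjusted p = 0.00154). Its relatives OSBPL1A and OSBPL2 rose by 0.98 and 0.86. GRAMD1A, of a family that moves cholesterol from the plasma membrane to the endoplasmic reticulum, rose by 0.63, and GRAMD1C by 0.41. OSBP2 rose by 1.76 from a low level, with FPKM values of 0.0983, 0.159 and 0.204 in control and 0.566, 1.37 and 0.523 after butyrate, and its log2 fold change was 0.63 with a pseudocount of 1. Its call was lost without a filter on low values (1.76, unchanged) and with quantile normalization (1.00).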
